A study of Mus musculus with 4 samples.

Results

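The genes described here are those of the cytosolic ribosomal proteins, the protein components of the ribosome outside mitochondria. They were chosen by name alone: symbols of the count table that begin with Rpl or Rps followed by a digit, and Rplp0, Rplp1, Rplp2 and Rpsa, without S6 kinases and without symbols that carry -ps, the mark of a pseudogene. The rule gave 85 of the 16798 gene symbols. Of these, 77 were the main ribosomal proteins, 46 of the large subunit and 31 of the small subunit. Another 7 were paralogues or a retrogene copy of such a gene (Rpl22l1, Rps27l, Rps27rt, Rpl36al, Rpl39l, Rpl3l and Rpl7l1). The last, Rps19bp1, encodes a protein that binds Rps19 and is no ribosomal protein itself. Left out were 8 symbols with -ps and 9 symbols of S6 kinases.

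CD45+ (immune) cells had been sorted from mouse cortex at 18 months of age and sequenced one by one with 10x Genomics chemistry that counts a transcript once near its 3′ end by a unique molecular identifier (UMI). APP/PS1 mice, which carry amyloid transgenes, are called AD. APP/PS1 mice with the genotype Axl-/- Mertk-/-, so without Axl and Mertk, receptor tyrosine kinases that take part in the clearing of dying cells, are called ADAM. Both groups carry APP/PS1, no mouse without amyloid was analysed here, and the labels limit the receptor deletions to no cell type. Each genotype had 2 libraries of 2 pooled cortices each, so that a test between genotypes measures the spread between pools.

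A ribosome reads messenger RNA on its small subunit and joins amino acids on its large subunit, and every growing cell needs the ribosomal proteins in near equal numbers. Their messenger RNAs are among the most abundant of any cell. Most begin with a C followed by a run of pyrimidines (C or T), the 5′ terminal oligopyrimidine tract, through which the growth kinase complex mTORC1 governs their translation. The stalk proteins Rplp0, Rplp1 and Rplp2 recruit the elongation factors, and Rpsa, Rps2 and Rps3 belong to the small subunit. In immune cells, ribosomal protein transcripts are known to take a high share of the RNA of resting lymphocytes and a low share of that of neutrophils.

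The 15451 deposited cells held 14963857 to 29831947 UMIs per library, with 3704 UMIs per cell at the median in AD 1 and 4953 to 5457 in the other libraries. Cell classes and 7 numbered microglia states are the authors'. The 4 libraries shared 24 cell barcodes of 15427. The libraries differed in RNA of other cells. Microglia with a state held, in ADAM 2, 777 CPM (UMIs scaled to a library total of 1e6) of 7 neutrophil markers against 14.9 to 54.0 in the other libraries, and 4498 CPM of 4 haemoglobin genes against at most 0.612. Microglial markers summed to 14927, 14494, 14716 and 11598 CPM in AD 1, AD 2, ADAM 1 and ADAM 2, with all 7 detected in each.

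A pyrimidine tract was looked for at the annotated starts. RefSeq promoters (GRCm38.p6) matched 65 of the 85 symbols. A run of at least 7 pyrimidines lay between 15 bases before and 20 after the start in 50.8% of them, against 21.1% of all 27025 promoters. The first base was C in 33.8%, against 16.2% of all. In the window of 300 bases, CTTTCC on the gene's strand occurred in 36.9% against 14.0%, and CTCTTTC in 18.5% against 3.91%. The GABP-type motif CCGGAAG, searched on both strands, occurred in 38.5% against 9.12%, AAGATGGC (YY1, both strands) in 7.69% against 2.88%, and TATAAA in 9.23% against 8.88%. These are matches of letters, not sites. The 4 starts printed here belong to symbols named in the comparisons. Rps26 and Rpl22l1 have a long pyrimidine run near the listed start, and Rpl41 and Rps28 a short one. The listed first base is G in Rps26, Rpl22l1 and Rpl41 and C in Rps28, so neither long run begins at that base. Each has 50 bases before and 20 from the start on, with the longest pyrimidine run near the start in capitals.
Rps26: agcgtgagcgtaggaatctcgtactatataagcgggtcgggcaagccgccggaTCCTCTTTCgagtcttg
Rpl22l1: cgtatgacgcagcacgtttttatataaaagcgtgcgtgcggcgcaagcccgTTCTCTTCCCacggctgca
Rpl41: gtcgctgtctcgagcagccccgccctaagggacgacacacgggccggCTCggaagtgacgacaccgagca
Rps28: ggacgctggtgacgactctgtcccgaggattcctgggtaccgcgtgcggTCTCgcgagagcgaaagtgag
The windows are chr10:128626487-128626556 (minus strand) for Rps26, chr3:28805458-28805527 (plus) for Rpl22l1, chr10:128549149-128549218 (minus) for Rpl41 and chr17:33824543-33824612 (minus) for Rps28. The run of Rps26 has 9 bases and that of Rpl22l1 10, against 3 in Rpl41 and 4 in Rps28.

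The share of UMIs on the 85 symbols differed more between cell sets than between libraries. T and NK cells gave 35.0, 37.3, 36.2 and 36.6% of their UMIs to ribosomal proteins in AD 1, AD 2, ADAM 1 and ADAM 2. State 3 microglia came next, with 25.8, 29.2, 26.9 and 31.3%. B cells followed, at 22.8 to 28.2% in the 3 libraries with at least 20 of them. State 5 stood at 18.4, 19.8, 20.3 and 21.0%, and state 0, the most numerous state, at 12.7, 15.7, 15.4 and 17.1%. Neutrophils (7.74 to 8.72% in 3 libraries) and state 2 microglia (5.36 to 7.94%) stood lowest. The ranges of T and NK cells, state 3, state 5 and state 0 did not overlap. The states and classes were clustered on genes that can include these, so their differences are descriptions and have no test.

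**Figure D1:**
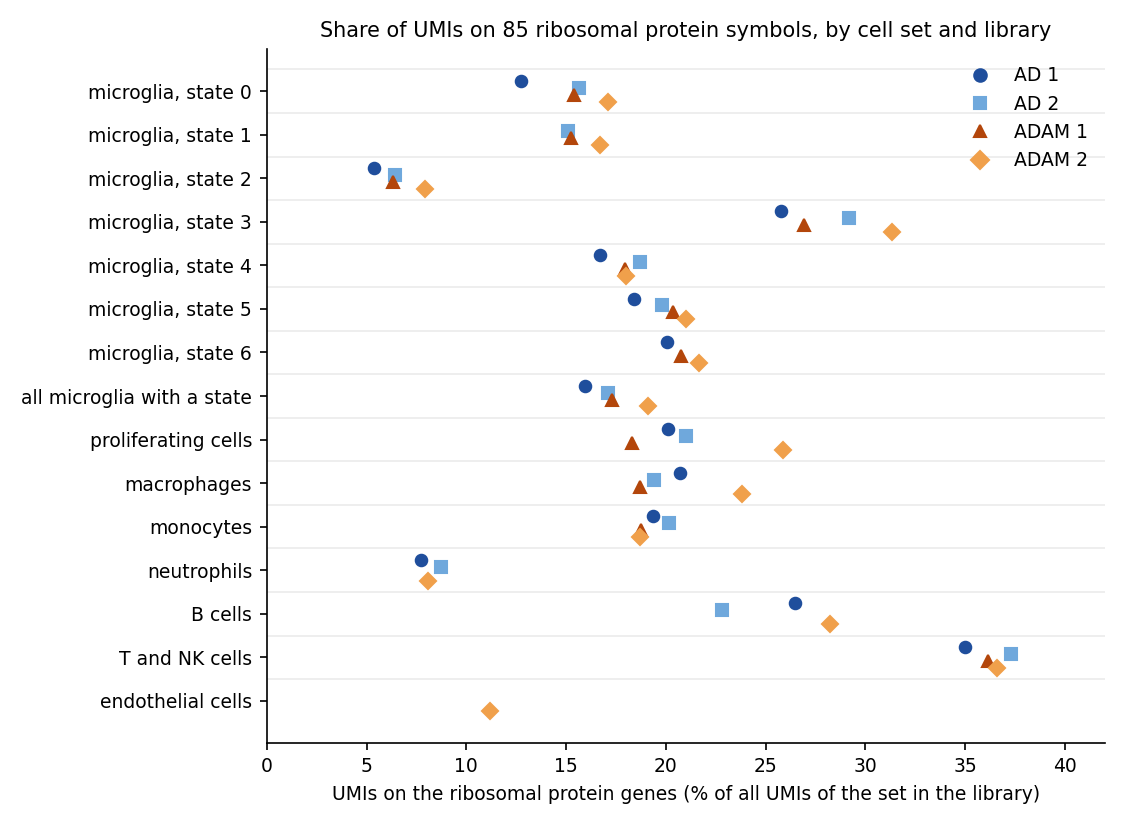
Share of all UMIs of a cell set that fell on the 85 ribosomal protein symbols (x axis, %), for each set (y axis) and library with at least 20 cells (points). T and NK cells lie between 35.0 and 37.3% and state 3 microglia between 25.8 and 31.3%, while neutrophils and state 2 lie below 9%.

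A high share can come from more ribosomal transcripts or from fewer others, and both numbers were counted per cell. State 3 cells held 733, 1453, 1008 and 1094 ribosomal UMIs per cell in AD 1, AD 2, ADAM 1 and ADAM 2, and state 0 cells 621, 1075, 1023 and 1184. The other UMIs of state 3 cells numbered 2109, 3529, 2735 and 2398 per cell, and those of state 0 cells 4251, 5788, 5620 and 5740. Ribosomal UMIs per cell were higher in state 3 in AD 1 and AD 2 and lower in ADAM 1 and ADAM 2, while other UMIs were lower in state 3 in every library, without overlap. T and NK cells held 1109 to 1422 ribosomal and 2058 to 2390 other UMIs per cell. In single state 3 cells the share at the tenth percentile was 21.0, 22.1, 18.9 and 20.9%, and at the ninetieth percentile of state 0 it was 17.3, 20.6, 19.8 and 22.8%. State 3 thus began above that level of state 0 in both AD libraries and below it in both ADAM libraries.

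Between state 3 and state 0, the whole set moved together. All 80 symbols with at least 50 UMIs in both states of each library were higher in state 3 in 4 of 4 libraries, where 61.1% of all 427 genes past that minimum were higher and 21.3% lower. Differences are of log2(CPM + 1) within a library, averaged over libraries. The median symbol differed by 0.87, and that of all genes past the minimum by 0.44. The medians by library were 0.996, 0.90, 0.78 and 0.87. With CPM taken over the genes that are not ribosomal, the mean of the library medians was 1.13.

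Rps26, a small subunit protein at the mRNA exit, was highest in this comparison. It stood at 977, 1067, 1204 and 1280 CPM in state 0 of AD 1, AD 2, ADAM 1 and ADAM 2, and at 2698, 2950, 3085 and 3109 CPM in state 3. The 2 states did not overlap, and the difference was 1.39 (range over libraries 1.28 to 1.47). Rpl41, the smallest ribosomal protein, followed at 1.23 (1.05 to 1.41), then Rpl38 at 1.12 and Rpsa, which also serves as a laminin receptor, at 1.08. At the other end stood Rpl4 at 0.33 (0.02 to 0.56), Rpl3 at 0.59, Rps9 at 0.66 and Rps3 at 0.71. Rpl4 had 391, 483, 473 and 514 CPM in state 0 and 576, 644, 480 and 649 CPM in state 3, and its states overlapped.

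Other translation genes, a list of elongation and initiation factors and like genes such as Eef1a1, Tpt1 and Pabpc1, had the same direction: 14 of the 15 past the minimum were higher in every library in state 3, with a median of 0.70. The mitochondrially encoded genes did too, in 11 of 11 with a median of 0.59. T cell markers summed to 2.56 to 23.1 CPM in state 3 and to 6.15 to 12.6 in state 0, and all 4 NK cell markers were at 0 in state 3. In state 0 the NK cell markers summed to only 0.654 to 1.93 CPM. At 196063 to 391130 UMIs per library in state 3, a count of 0 does not tell the states apart. Neutrophil markers in state 3 of ADAM 2 summed to 1442 CPM against 18.5 to 28.3 in the other libraries. In state 0 of ADAM 2 they summed to 676 CPM against 8.57 to 26.3 in the other libraries. Their part in the differences between the states was not tested.

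State 5 stood above state 0 for most ribosomal proteins while most other genes stood below. Of 83 symbols, 79 were higher in state 5 in every library and 1 was lower, where 18.8% of 5975 genes were higher and 60.8% lower. The median symbol differed by 0.38 and the median gene by −0.30. Rpl21, of the large subunit, led with 2575, 3108, 3184 and 3168 CPM in state 0 and 5041, 5079, 5215 and 5064 CPM in state 5. Each library was higher in state 5 and the states did not overlap, with a difference of 0.77 (0.68 to 0.97). Rpl41 (0.72), Rpl23 (0.70) and Rpsa (0.66) came next. Rplp1 (0.06), Rps9 (0.10) and Rps29 (−0.03) differed least from 0 in the mean.

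The exception below 0 in every library was Rpl7l1, a paralogue of Rpl7 that works in the nucleolus. It had 68.6, 64.0, 62.1 and 63.8 CPM in state 0 and 45.8, 45.8, 49.6 and 44.2 CPM in state 5, with no overlap and a difference of −0.47 (−0.57 to −0.32). Of 23 ribosome biogenesis genes past the minimum, 15 were lower in state 5 in every library and 2 higher, with a median of −0.29, which is near the 60.8% lower and the median of −0.30 of all genes. Of the other translation genes, 17 of 19 were higher in every library, with a median of 0.40. Growth control genes, such as those of the mTOR complex, had 7 of 10 lower and 1 higher.

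State 2 was the low end. All 47 symbols past the minimum were lower there than in state 0 in 4 of 4 libraries, where 36.8% of all genes were lower and 18.4% higher, with a median of −1.22. Rps29 (−1.55), Rpl10 (−1.54) and Rps9 (−1.46) stood lowest, and Rps21 (−0.63) and Rpl41 (−0.78) nearest to 0. State 2 cells had 808.5 to 886.5 UMIs at the median, against 4145 to 5904.5 in state 0. The 4 haemoglobin genes summed to 169838 CPM in state 2 of ADAM 2 and to 0 in the other libraries, and choroid plexus markers to 61628 CPM in AD 1. Without the haemoglobin and mitochondrially encoded genes, the ribosomal share of state 2 was 5.68 and 6.76% in the AD libraries, 6.66% in ADAM 1 and 9.93% in ADAM 2, which then stood further above the others. The part of the choroid plexus RNA was not tested. In state 1, 7 of 79 were higher than in state 0 in every library and 27 lower, against 23.9 and 22.9% of all genes, with a median of −0.03. In state 4, 57 of 78 were higher and 1 lower, against 57.5 and 23.2% of all genes, with a median of 0.25, led by Rps2 (0.81), Rpsa (0.71) and Rpl41 (0.66).

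**Figure D2:**
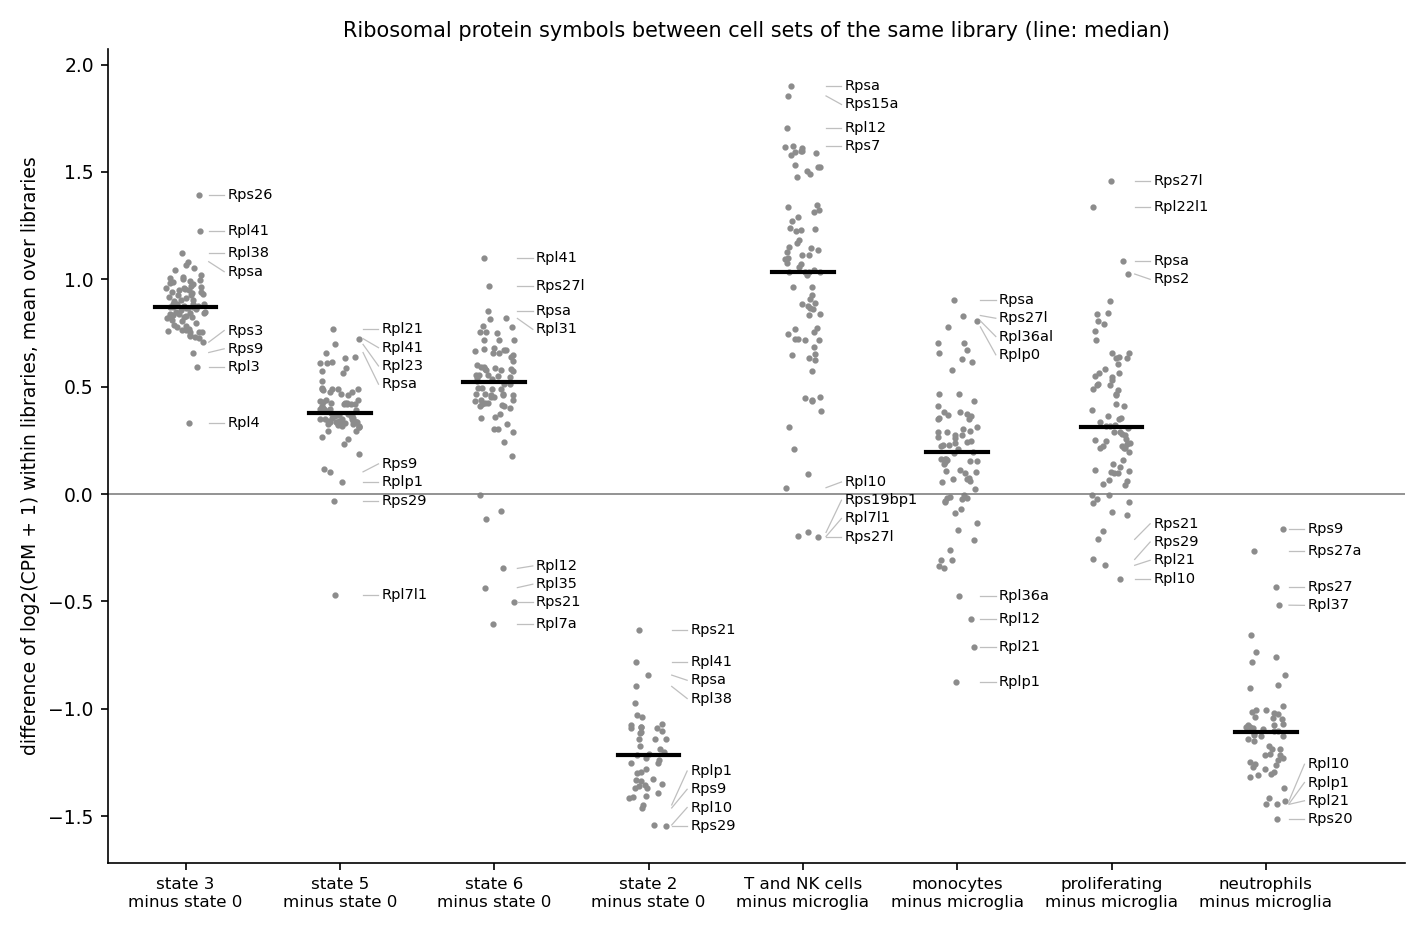
Difference of log2(CPM + 1) between 2 cell sets of a library, averaged over libraries (y axis), for each ribosomal protein symbol with at least 50 UMIs in both sets of each library (points), by pair of sets (x axis), with the median as a line. The 4 highest and 4 lowest symbols are named. All state 3 points lie above 0 and all state 2 points below, and in state 6 Rpl7a, Rps21, Rpl35 and Rpl12 lie apart below the rest.

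In state 6, 4 large and small subunit members went against the rest. Of 80 symbols, 72 were higher in state 6 than in state 0 in 3 of 3 libraries with at least 20 such cells and 4 were lower, where 62.2% of all genes past the minimum were higher and 24.3% lower. The median difference was 0.52, and Rpl41 led with 1.10. The 4 that were lower were Rpl7a (−0.61), Rps21 (−0.50), Rpl35 (−0.44) and Rpl12 (−0.35). Rpl7a had 846, 1117 and 1164 CPM in state 0 of AD 1, ADAM 1 and ADAM 2 and 601, 749.9 and 689.96 CPM in state 6. Its states did not overlap, and state 5 stood at 1213, 1499.9 and 1442 CPM in those libraries.

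These 4 are all of the family's members on chromosome 2 (GENCODE vM21, GRCm38), and their shared position was noticed after their values were seen. Genes of that chromosome with at least 100 CPM in state 0 of every library, 80 in all, were low as a group. Their median difference was −1.18 in AD 1, −1.34 in AD 2 with only 9 state 6 cells, −1.13 in ADAM 1 and −1.16 in ADAM 2. The medians of the 18 other autosomes ran from −0.64 to 0.18. Between 91.3 and 96.3% of the 80 genes were lower in state 6. Since these genes were chosen by their level in state 0, a choice by their mean over both states was also run, an alternative added after seeing the data. Then 69 genes had medians of −1.07, −1.19, −0.97 and −1.06, and no other autosome was below −0.46. Chromosome 2 was the lowest autosome in T and NK cells against microglia too, at −1.10, −1.19, −1.03 and −1.03 over 71 genes. There the next lowest autosome was near, at −0.94, −1.08, −0.99 and −0.93, and 60.6 to 66.2% of the genes were lower. Single state 6 cells gave 4.91, 5.15 and 4.91% of their UMIs to chromosome 2 at the median in AD 1, ADAM 1 and ADAM 2, and the medians of the other states ran from 6.57 to 13.4%. Both genotypes showed it, and no cause was tested.

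**Figure D3:**
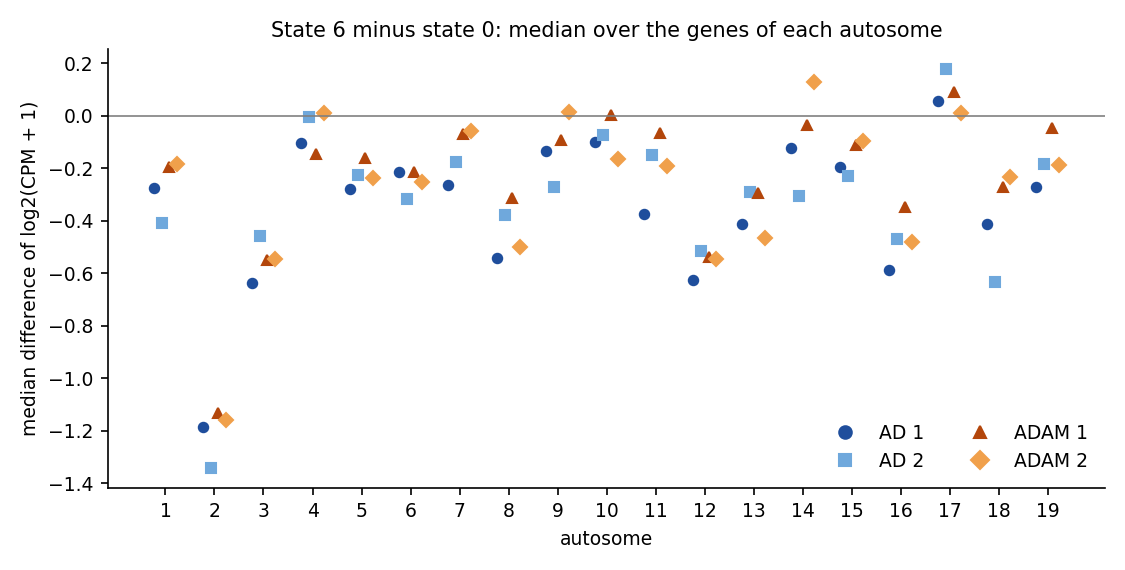
Median difference of log2(CPM + 1) between state 6 and state 0 over the genes of each autosome with at least 100 CPM in state 0 of every library (y axis), by autosome (x axis) and library (points). Chromosome 2 lies at −1.34 to −1.13 in all 4 libraries and every other autosome above −0.65; AD 2 had 9 state 6 cells.

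Most members were far higher in T and NK cells than in microglia. Of 83 symbols, 79 were higher in T and NK cells in every library and 3 lower, where 53.0% of all genes were higher and 30.5% lower, and the median was 1.04. Rpsa stood at 1771, 2042, 1966 and 2468 CPM in microglia (AD libraries first, then ADAM) and at 6973, 8273, 7437 and 7925 CPM in T and NK cells. The classes did not overlap and differed by 1.68 to 2.02 over the libraries. Rps15a (1.85), Rpl12 (1.71) and Rps7 (1.62) followed. Rpl10, a joining protein of the large subunit, overlapped between the classes: 2771, 2984, 2927 and 3143 CPM in microglia and 2796, 3120, 3184 and 2971 CPM in T and NK cells, a difference of 0.03 (−0.08 to 0.12).

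The 3 symbols lower in T and NK cells were none of the main ribosomal proteins. They were Rps27l (−0.20), a paralogue of Rps27 known as a p53 target, Rpl7l1 (−0.20) and Rps19bp1 (−0.18). Rpl22l1, a paralogue of Rpl22 with a role in T cell development, had 319, 342, 351 and 374 CPM in microglia and 956, 1069, 979 and 977 CPM in T and NK cells. It was higher in each library. Its parent Rpl22 had 1247, 1285, 1386 and 1446 CPM in microglia and 2739, 2648, 2868 and 2620 CPM in T and NK cells, also higher in each.

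Proliferating cells, a class marked by Mki67 and Top2a, were highest over microglia in 2 of the paralogues. Rps27l stood at 177, 151, 179 and 167 CPM in microglia and at 408, 427, 494 and 536 CPM in proliferating cells, with no overlap, a difference of 1.46 (1.20 to 1.67). Rpl22l1 differed by 1.34, Rpsa by 1.08 and Rps2, a small subunit protein near the mRNA entry, by 1.02. The median symbol differed by only 0.31, and Rpl10 (−0.39), Rpl21 (−0.33) and Rps29 (−0.30) were lower. Counts over the set were 49 higher and 4 lower of 80, against 58.9 and 19.8% of all genes. In neutrophils 57 of 58 were lower than in microglia in 3 of 3 libraries, against 50.5% of all genes, and 0 were higher, against 42.5%, with a median of −1.11 and Rps9 nearest to 0 at −0.16. Microglia markers in neutrophils summed to 5611, 4449 and 3075 CPM in AD 1, AD 2 and ADAM 2, and their part was not tested.

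In monocytes the members moved in both directions. Of 80 symbols, 42 were higher than in microglia in every library and 10 lower, against 61.7 and 19.4% of all genes, with a median of 0.19. Within the stalk, Rplp1 and Rplp0 went apart. Rplp1 had 4266, 5471, 5596 and 5561 CPM in microglia (AD libraries first, then ADAM) and 2558, 2794, 2729 and 3277 CPM in monocytes. Rplp0 had 1783, 1922, 1984 and 2060 CPM in microglia and 3396, 3599, 3060 and 3241 CPM in monocytes. Neither overlapped, with differences of −0.88 for Rplp1 and 0.78 for Rplp0. Rpl21 (−0.71), Rpl12 (−0.58) and Rpl36a (−0.48) were low with Rplp1, while Rpsa (0.90), Rps27l (0.83) and Rpl36al (0.81) were high. Neutrophil markers in the monocyte class summed to 143, 2045, 4188 and 70971 CPM, highest in ADAM 2, and their part was not tested.

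Rpl3l, a paralogue of Rpl3 known from heart and skeletal muscle, was found mostly in monocytes. Of its 179 UMIs in cells with a class, 137 lay in the 563 monocytes. It was counted in 5 of 91, 16 of 104, 31 of 148 and 55 of 220 monocytes of AD 1, AD 2, ADAM 1 and ADAM 2. These are shares of 5.49, 15.4, 20.9 and 25%, with exact 95% binomial intervals of 1.81 to 12.4, 9.06 to 23.8, 14.7 to 28.4 and 19.4 to 31.3%. Median depths were 5634 to 5775 UMIs in the first 3 libraries and 8723 in ADAM 2. Among T and NK cells, 0 of 1022, 828, 678 and 737 held a UMI at median depths of 2925.5 to 3547.5, which at 3 counts allows shares of up to 0.294 to 0.442%, with exact upper bounds of 0.360 to 0.543%. This limits the cells with a UMI at that depth, which is below that of the monocytes, and not the cells that express the gene. In microglia, 4 of 2317 in ADAM 1, 1 of 2060 in ADAM 2 and none in AD held a UMI. Among neutrophils, 1 of 30, 4 of 136, 0 of 11 and 14 of 580 did. The intervals cover counting error only.

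Between the genotypes, no ribosomal protein symbol passed an adjusted p of 0.05 by edgeR in any of the 10 cell sets tested. DESeq2 and limma-voom also called 0 in each set. In all microglia with a state, 84 symbols were tested and 3 had an unadjusted p under 0.05, as had 2.35% of 11924 genes. The adjusted threshold was passed by 0.0419% of genes there, 0.101% in state 0, 0.0635% in state 2, 0.313% in state 3, 0.127% in state 4 and 0.153% in state 5. It was passed by 0.241% in T and NK cells, 0.155% in monocytes, 0.0154% in macrophages and 0.0842% in proliferating cells. The share of UMIs on the symbols was 16.5 ± 0.82% (SD, n = 2) in AD microglia and 18.2 ± 1.28% in ADAM microglia, and the libraries did not overlap. AD 2 and ADAM 1 lay closer to each other than to the other library of their genotype, and 2 libraries against 2 allow no exact permutation p under 0.05. The libraries also differed in their mix of states. State 0 made up 766 of 1600 microglia in AD 1 and 2004 of 3100 in AD 2. In ADAM 1 it made up 1244 of 2317, and in ADAM 2 822 of 2060. Within the states tested, the shares of the genotypes overlapped in states 0, 2, 3 and 4 and not in state 5. The part of the state mix in the microglia values was not tested.

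Most symbols leaned the same small way in microglia. Of 84, 79 had a positive log2 fold (ADAM over AD), as did 51.0% of all genes, and the median fold was 0.19 against 0.0035 for all genes. The 2 ADAM libraries lay above both AD libraries for 50 symbols and below for 0, where 14.1% of all genes lay above and 13.3% below. Each symbol shares its libraries with the others, so these are not 84 separate pieces of evidence. The median was 0.11 without ADAM 2, 0.14 without AD 1, 0.26 without AD 2 and 0.28 without ADAM 1. AD 1 had the lowest depth and share and ADAM 2 the highest share, and ADAM 2 is the library with neutrophil and haemoglobin transcripts. With haemoglobin and mitochondrially encoded genes left out of the fit, the median was 0.19. That fit keeps the same cells and the neutrophil transcripts. It therefore does not measure the part of neutrophil and haemoglobin RNA, which was not tested.

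The 3 symbols with an unadjusted p under 0.05 in microglia were Rpl41, Rps28 and Rps27rt, the last a retrogene copy of Rps27. Rps28 and Rps27rt are named after their values were seen. Rpl41 stood at 1867, 1823, 2613 and 2346 CPM (TMM-scaled) in AD 1, AD 2, ADAM 1 and ADAM 2. Both ADAM libraries were higher, by 0.43 on the log2 scale (SE 0.13; adjusted p = 0.9999 by edgeR). Rps28, a small subunit protein, stood at 1089.6, 947, 1457 and 1316 CPM, with no overlap and a fold of 0.45 (SE 0.14; p as for Rpl41). Rps27rt stood at 39.5, 57.2, 66.7 and 74.2 CPM, again with both ADAM libraries higher, by 0.53 (SE 0.18; p as for Rpl41). Without AD 2 this was 0.83, past the threshold of edgeR at 0.047, and without AD 1 it was 0.29. Rps27 and its retrogene copy are alike in sequence, and no source used here says how reads were split between them.

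State 0 showed the same lean. Of 84 symbols, 82 had a positive fold, as did 51.5% of all genes, and the median was 0.27. The ADAM libraries lay above both AD libraries for 41 symbols, where 16.4% of all genes did, and below for 0. The 6 with an unadjusted p under 0.05 (4.22% of all genes) were Rps28, Rpl41, Rpl22l1, Rps26, Rpl7a and Rpl36a. Rps28 stood at 752, 839, 1255 and 1113 CPM (TMM-scaled), lowest in both AD libraries, a fold of 0.57 (SE 0.14). Its adjusted p by edgeR was 0.333, and 0.0211 with no filter on low counts. Rpl22l1 stood at 247, 301, 324 and 376 CPM (TMM-scaled), also without overlap, a fold of 0.35 (SE 0.13; 0.998 after adjustment by edgeR). The median of the symbols fell to 0.10 without AD 1 and rose to 0.49 without AD 2.

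**Figure D4:**
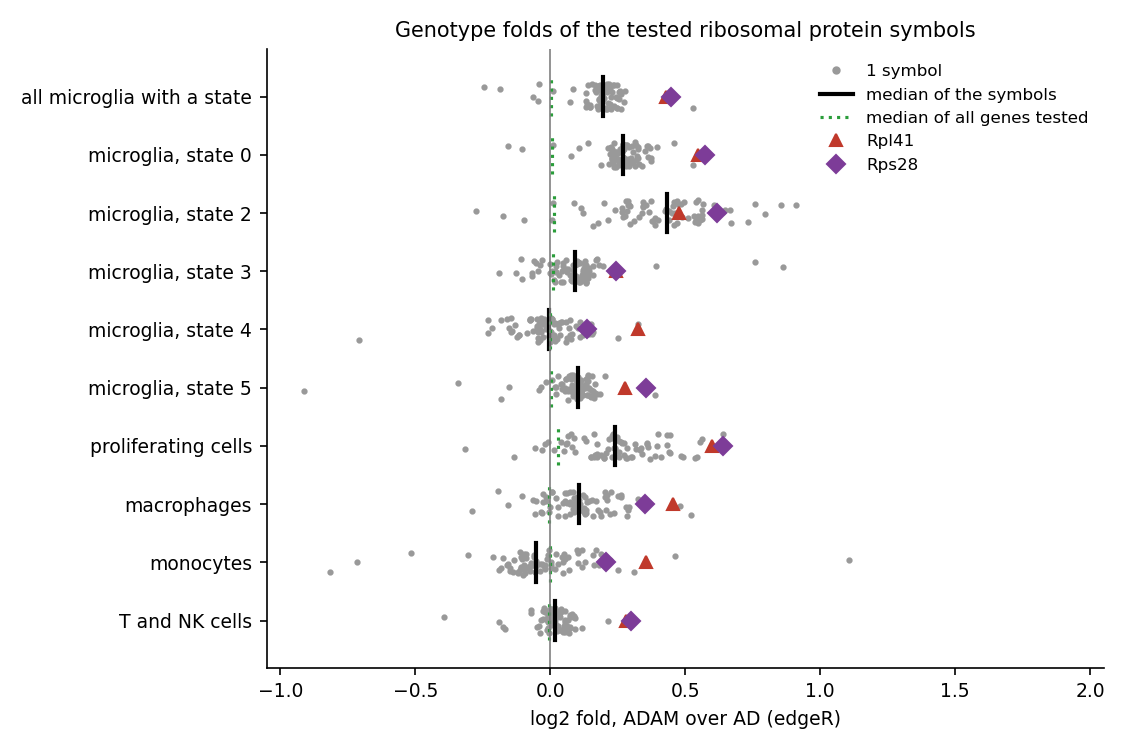
Log2 fold of ADAM over AD from edgeR (x axis) for each ribosomal protein symbol tested (points), by cell set (y axis), with the median of the symbols (solid line) and of all genes tested (dotted line). The microglia median is 0.19 and the T and NK cell median 0.02, and no symbol passed an adjusted p of 0.05.

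In the other sets the lean was smaller or depended on 1 library. In state 5, 77 of 84 folds were positive (50.2% of all genes), the median was 0.10, and 32 symbols lay above without overlap and 1 below (16.9 and 16.7% of all genes). There 3 had an unadjusted p under 0.05 by edgeR (5.30% of all genes): Rps28 (0.35), Rps27rt (0.39) and Rpl39l (−0.91), a paralogue of Rpl39. The median was 0.04 without AD 1 and 0.17 without AD 2. In state 3, 70 of 83 were positive (51.7% of all genes), 1 had an unadjusted p under 0.05 (4.95%), the median was 0.09, and it was −0.03 without AD 1 and −0.03 without ADAM 2. There 10 symbols lay above and 1 below, against 16.9 and 15.9% of all genes, and the median was 0.23 without AD 2 and 0.20 without ADAM 1. In T and NK cells 58 of 83 were positive (48.9% of all genes), 1 had an unadjusted p under 0.05 (5.20%), the median was 0.02, and 5 lay above and 0 below (16.3 and 16.5% of all genes). It was −0.04 without AD 1 and 0.10 without AD 2.

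In monocytes fewer folds were positive, 32 of 84 (50.1% of all genes). There 3 had an unadjusted p under 0.05 by edgeR (8.51% of all genes), the median was −0.05, and 8 symbols lay above and 19 below, where 18.3 and 19.9% of all genes did. The median was 0.07 without ADAM 1, −0.12 without ADAM 2, −0.01 without AD 1 and −0.03 without AD 2. Rpl3l had the highest fold, with 10.1, 26.97, 42.4 and 40.2 CPM (TMM-scaled) in AD 1, AD 2, ADAM 1 and ADAM 2. Both ADAM libraries lay above, by 1.11 (SE 0.41; adjusted p by edgeR 0.488). Leaving out AD 1 gave 0.62 and leaving out AD 2 gave 2.02. Rps19bp1 stood at 44.5, 43.8, 24.8 and 28.4 CPM (TMM-scaled), lower in both ADAM libraries, a fold of −0.71 (SE 0.28; 0.511 after adjustment by edgeR). Rpl36al, a paralogue of Rpl36a, stood at 888, 433, 384 and 364 CPM (TMM-scaled), a fold of −0.82 (SE 0.33; 0.546 after adjustment by edgeR). Its AD libraries lay far apart, and the fold was −0.20 without AD 1. The 4 monocyte markers summed to 12756, 11297, 5123 and 10465 CPM and the neutrophil markers were highest in ADAM 2, and their part in these folds was not tested. Of 83 symbols tested in both sets, 17 lay higher in both ADAM libraries in microglia and lower in both in monocytes (20.5%), against 3.50% of 6321 genes, and 0 the other way, against 2.17%.

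In state 2, 77 of 80 folds were positive (51.1% of all genes), 31 symbols lay above without overlap and 0 below (15.2 and 15%), and 2 had an unadjusted p under 0.05 (3.05%). In macrophages 69 of 83 were positive (49.4%), 6 lay above and 0 below (14.9 and 14.3%), and 0 had such a p (2.21%). In proliferating cells 77 of 83 were positive (52.1%), 18 lay above and 1 below (19.6 and 20.1%), and 0 had such a p (8.73%). The medians of these sets, 0.43, 0.11 and 0.24, were 0.08, −0.10 and −0.03 without ADAM 2 and 0.76, 0.26 and 0.50 without ADAM 1. In macrophages the median was 0.17 without AD 1 and 0.07 without AD 2. Other markers moved with ADAM 2 as well. Its macrophages held 13750 CPM of haemoglobin genes against at most 1.14 in the other libraries. Neutrophil markers in proliferating cells summed to 3.43, 174, 112 and 18508 CPM in AD 1, AD 2, ADAM 1 and ADAM 2, microglia markers to 5032, 4911, 3617 and 1188, and T cell markers to 2804, 1462, 679 and 307. Without haemoglobin and mitochondrially encoded genes the medians of state 2, macrophages and proliferating cells were 0.42, 0.11 and 0.24, in fits that keep the same cells. The part of haemoglobin RNA and of the other markers in these folds was not tested. State 4 had 39 of 83 positive (50%), 4 above and 5 below (15.3 and 15.2%), none with such a p (3.35%), and a median of −0.003, which was −0.13 without AD 1 and 0.11 without AD 2. In proliferating cells, 11 of the symbols passed the threshold of edgeR without ADAM 1, as did 750 of 7283 genes (10.3%). In that fit 38 and 40 AD cells stand against 52 of ADAM 2 and the lone library is assumed to vary like the others.

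Some ribosomal proteins deviated in the same library in each of 6 cell sets. For each library the deviation of a symbol from its mean over the 4 libraries was taken after subtracting the median symbol, in state 0, state 3, state 5, T and NK cells, monocytes and macrophages. Of 80 symbols with at least 50 UMIs throughout, 7 had a mean deviation over 0.25 on the log2 scale with the same sign in all 6 sets. These were Rpl36al, Rpl27, Rpl35, Rpl38, Rps28, Rpl41 and Rps29. AD 1 was high in Rpl36al (0.69), Rpl27 (0.53), Rpl35 (0.44) and Rpl38 (0.28). Rpl27, a large subunit protein, was also high in ADAM 1 (0.16) and low in AD 2 (−0.31) and ADAM 2 (−0.37). Rps27rt, under that minimum with as few as 11 UMIs, was low in AD 1 (−0.45).

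Rpl41 and Rps28 belong to this pattern in part. Each was higher in both ADAM libraries in 9 of 10 sets without being called by edgeR. In single sets, 14.1 to 19.6% of all genes lay above in this way, and the share over 9 sets was not counted. The sets come from the same 4 libraries, and all microglia with a state include the single states. They are thus not 10 separate pieces of evidence. Relative to the median symbol, Rps28 deviated by 0.0043, −0.26, 0.31 and −0.06 in AD 1, AD 2, ADAM 1 and ADAM 2. Rpl41 deviated by −0.13, −0.14, 0.30 and −0.03 in the same order. ADAM 1 was high in both, and ADAM 2 lay inside the AD range for Rps28 and above it for Rpl41. Without ADAM 1 the microglia folds were 0.35 for Rpl41 and 0.37 for Rps28, and after adjustment by edgeR p was 0.870 and 0.839. The folds in state 5 were 0.09 and 0.19, and in T and NK cells 0.09 and 0.13, against 0.28 and 0.35 in state 5 and 0.28 and 0.30 in T and NK cells with all libraries. In state 4, where its genotypes overlapped, Rps28 had a fold of 0.13, and −0.06 without ADAM 1.

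**Figure D5:**
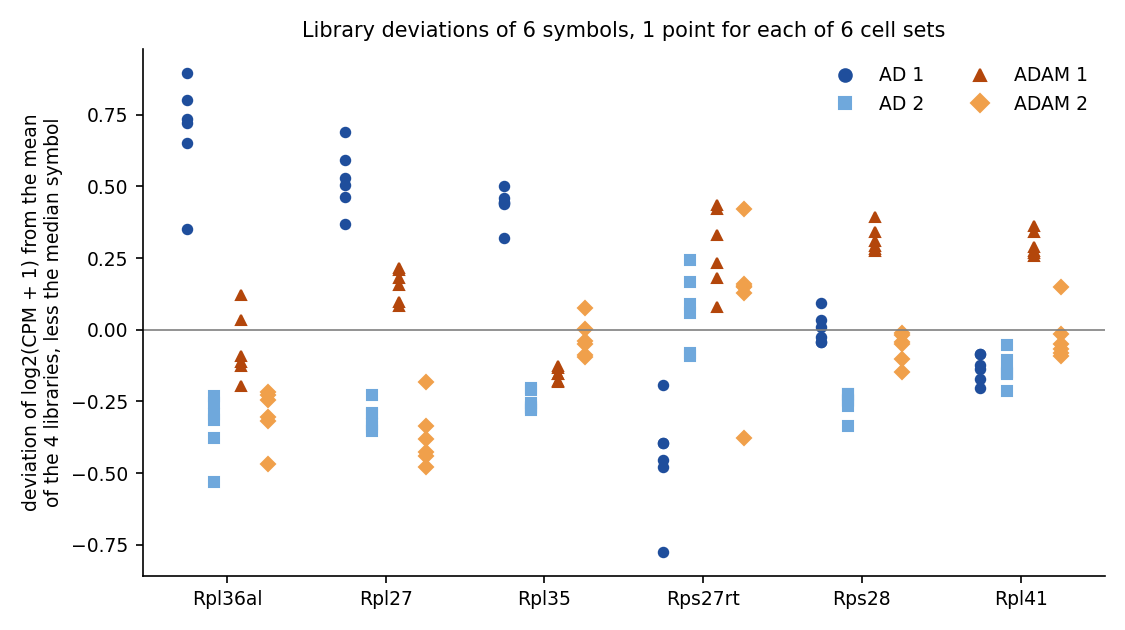
Deviation of a symbol's log2(CPM + 1) in a library from its mean over the 4 libraries, less the median ribosomal protein symbol (y axis), for 6 symbols (x axis), with 1 point for each of 6 cell sets. AD 1 lies above 0 in Rpl36al, Rpl27 and Rpl35 in all 6 sets and ADAM 1 in Rps28 and Rpl41.

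Members that lie close to the deleted genes were set apart. Within 20 Mb of Axl (chr7:25757273-25788705, GRCm38) lie, among others, Rps19, Rps16, Rpl13a and Rpl18, and no member lies that close to Mertk (chr2:128698956-128802894). Rps19, the nearest, at chr7:24884371-24889806 and 0.867 Mb away, had a microglia fold of 0.24 (SE 0.16; 0.9999 after adjustment by edgeR), with overlapping genotypes. Rps16 had a fold of 0.24, Rpl18 one of 0.21 and Rpl13a one of 0.07. The median symbol had 0.19, and none of these 4 was called.

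Genes of the same pathway outside the family were not called in microglia either, by edgeR with adjustment over all genes. Of 19 other translation genes, 18 had a positive fold with a median of 0.19. Ribosome biogenesis genes had 25 of 33 positive with a median of 0.08, and mitochondrial ribosomal proteins 58 of 78 with 0.06. Growth control genes had 10 of 15 positive with a median of 0.04, and mitochondrially encoded genes 9 of 13 with 0.15. In monocytes the other translation genes had 5 of 19 positive with a median of −0.08.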

How the data were processed

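Single-cell RNA was measured in 4 libraries of CD45+ cortex cells (2 AD, 2 ADAM). The authors deposited raw UMI counts per gene symbol and cell without normalization, as the whole-number values show, and a table of cells with class, state, doublet marks, UMI counts and, per the file headers, the percent of mitochondrial UMIs. Tools and build in the submitters' processing notes are mm10, Seurat 3.2.1.9002 and Cell Ranger 3.1.0, with no roles. No source used here says how reads of near-identical copies were assigned. The authors' classes and states were used; cells they marked as doublets have no class and were left out.

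Counts were summed per library and cell set. A set entered the test if every library had 20 or more of its cells. The test was edgeR's quasi-likelihood one (edgeR 4.0.16, R 4.3.3; TMM, minimum count 10, robust fit, genotype as the only term), with Benjamini-Hochberg adjustment over all genes at 0.05. The script was tested on simulated data. Levels are CPM without TMM, but levels of single symbols beside a genotype fold are TMM-scaled. Log2 values use a pseudocount of 1, and ± is the SD of 2 libraries. Differences between sets of a library used symbols with at least 50 UMIs in every library of both sets. Where 1 of the sets has few cells, this minimum favours genes that are high there, also among all genes. Alternatives were RLE scaling, no filter, library sizes without the family, DESeq2 1.42.0, limma-voom 3.58.1, a replicate block, each library left out, no haemoglobin or mitochondrial genes, cells with at least 2000 UMIs, and other microglia definitions.

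Named were members past the threshold, a fixed list (stalk, paralogues and well-known members), the 4 highest and 4 lowest of each pair of sets, members within 20 Mb of Axl or Mertk, and members with a -ps copy over 5% of the pair; others are said to be named after their values were seen. A few genes that this rule allows are not reported here. The members and lists were chosen with earlier results of these data known. Promoter sequences are from RefSeq, positions from GENCODE vM21. Depth sets the precision: sets of few cells have wide errors, and intervals and limits cover counting error only.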

Additional observations from a re-analysis of the deposited data

Results flagged for a closer look

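For 9 of the members named in the text, both ADAM libraries lay above both AD libraries in one cell set and below them in another. Over the sets in which all 4 libraries could be fitted this holds for many genes: of 1999 tested in every such set, 1125 (56.3%) lay in opposite directions in at least 1 pair of sets, and of the 80 members among them, 20 (25%). Whether the folds differ between the sets was not tested, and no fold was called by edgeR. Rpl18 had a log2 fold of 0.21 in microglia and −0.16 in monocytes and Rpl7a one of 0.26 and −0.12 in the same 2 sets. Also in microglia and monocytes, Rps7 had folds of 0.20 and −0.21, Rpl10 of 0.13 and −0.11, Rpl21 of 0.13 and −0.15 and Rpl3 of 0.19 and −0.053. Rpl13a had a fold of 0.14 in state 0 and −0.32 in proliferating cells. Rpl36a had 0.29 in state 0 and −0.23 in state 4, and Rps27l 0.23 in state 0 and −0.13 in state 3.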

How the results depend on the processing

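The count of members called by edgeR was 0 in each set and stayed 0 in 115 of 121 alternatives. The exceptions were 1 in microglia, 2 in state 5 and 11 in proliferating cells with a library left out (AD 2, AD 2 and ADAM 1), 1 in state 5 without ADAM 1, and 1 each in state 0 and monocytes with no filter on low counts. In these 6 fits 0.219, 0.619, 10.3, 1.31, 0.602 and 2.12% of all genes were called. With each library left out in turn, these counts ran from 0 to 1 in microglia and from 0 to 2 in state 5. The median fold ran from 0.10 to 0.49 in state 0, from 0.040 to 0.17 in state 5 and from −0.12 to 0.070 in monocytes when 1 library was left out; in state 5 it was 0.14 with library sizes without the family and no TMM. In 111 of 121 alternatives the median moved by less than the spread between replicates. The difference of member share between genotypes moved by less than that spread in 54 of 54. A move within the spread can still change the sign. In T and NK cells the mean share was 36.2% in AD and 36.4% in ADAM, while AD 2 alone had 37.3%. In state 3 these values were 27.5, 29.1 and 29.2%. The counts of 111 and 54 thus do not show that a difference keeps its direction. With CPM over the other genes, the median within-library difference was 1.13 for state 3 and 1.42 for T and NK cells. Of 164 alternative values of 13 folds of 8 members (Rpl41, Rps28, Rps27rt, Rps26, Rpl22l1, Rpl36al, Rps19bp1 and Rpl3l), 161 kept side and direction. Over every set tested, 27 of the 69 folds of these members changed sign without 1 library, among them Rps28 in state 4, and none of the 69 was called. With the replicate number as a block, the microglia median was 0.20 and 0 members were called in any set. The labels do not say that a number marks a shared batch, and deviations of same-numbered libraries correlated at −0.34 to 0.12 over genes, so the numbers were not taken to pair libraries. Where a set has few cells, as state 4, the standard errors of single members are near 0.2 on the log2 scale at the median. Such an error is no limit of detection. Rps28 in state 0, with a larger fold of 0.57 and a smaller error of 0.14, was not called either. With 1 library left out, the lone library of its genotype is assumed to vary like the others.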

Other observations

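In B cells, 72 of 76 members were higher than in microglia in 3 of 3 libraries and 1 was lower, where 80.8 and 10.8% of the 167 genes past the minimum were, with a median difference of 0.58. Rps26 (1.32, range 0.92 to 1.98), Rpl8 (1.21), Rpsa (1.15) and Rps19 (1.11) led, and Rplp1 (−0.23) was lowest. Microglia markers in B cells summed to 212, 4963 and 3118 CPM in AD 1, AD 2 and ADAM 2. The median differences were 0.78, 0.43 and 0.55 in the same order, and the part of the microglial RNA was not tested. In macrophages 69 of 80 were higher and 1 lower, against 47.5 and 26.8% of all genes, with a median of 0.25. Rps27l (0.64), Rpsa (0.61), Rps26 (0.53) and Rps19 (0.51) led there, and Rpl21 (−0.24) was lowest. Rplp1 and Rpl21 were thus among the 4 lowest members in B cells, monocytes, macrophages and neutrophils alike, all against the same microglia.

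Among the 8 symbols with -ps, Rpl27-ps3 alone took over 5% of the UMIs of its pair, 5.89% in microglia and 5.96% in T and NK cells. In T and NK cells it stood at 77.9, 58.3, 91.0 and 53.5 CPM in AD 1, AD 2, ADAM 1 and ADAM 2, against 1431, 902, 1231 and 819 CPM of Rpl27. Both were higher in AD 1 and ADAM 1 than in the other 2 libraries, and whether reads are shared between them was not tested. Rps29 was lowest in ADAM 1 in state 0, state 5 and T and NK cells, with 4331, 4138 and 4575 CPM against 5235 to 7422, 5419 to 6821 and 5831 to 7458 CPM in the other libraries.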
